A study of Mus musculus with 12 samples.

Results

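The immunoglobulin light chain variable segments measured here are the listed features whose mouse gene symbol begins with Igkv (kappa) or Iglv (lambda). They number 27 of the 991 features listed in any of the 12 colon RNA libraries, 26 of them kappa segments and 1, Iglv2, a lambda segment. GENCODE release M21 annotates 160 kappa and 3 lambda segments, of which 100 and 3 are classed as V genes rather than pseudogenes, and all 27 listed segments are V genes. Each group held 3 libraries from mouse colon. Control mice were given water (ddH2O). DSS mice drank 2.5% dextran sulfate sodium, a polysaccharide that injures the colon lining, for 5 days and then water for 5 days, over 3 cycles. BXD_L and BXD_H mice had the same DSS course and also received Banxia Xiexin Decoction, a Chinese herbal preparation, in daily doses of 7.60 g/kg and 15.2 g/kg, respectively. Age, sex and strain are not used here. Nothing in the labels ties a library to 1 mouse, so the tests reflect differences among libraries that may in part be technical.

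An antibody light chain is made by a B cell that joins 1 variable (V) segment to a joining (J) segment, with the constant gene downstream, at the kappa locus or at the lambda locus. The V segment encodes most of the antigen-binding domain of the light chain, and the constant gene Igkc serves every kappa chain. B cells that have matured into plasma cells transcribe the joined gene at very high levels, and in the gut wall most plasma cells secrete IgA. Reads of a given V segment in colon RNA thus come mainly from the B lineage cells that joined that segment. Their descendants carry the same join, and somatic mutation can move it away from the germline sequence to which reads are aligned. In bulk tissue, more cells of a type and more RNA per cell cannot be told apart.

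The segments differ in sequence enough to be counted separately in some cases and hardly at all in others, so the sequences that bear on the values are shown before them. All 27 have 2 exons, a short leader exon and the V exon. In 15 of the 27 the closest other light chain V gene of the annotation was at least 95% identical over the aligned coding bases. For 8 segments no stretch of 50 bases recurs in another light chain V gene, and for 14 more than 25% of such stretches do. The last 60 coding bases of 11 segments follow, 5′ to 3′, from the GENCODE M21 transcripts (build GRCm38, 1-based coordinates), each inside the V exon. They were chosen because these segments had the highest levels, the most uneven levels between libraries or the changes described under the decoction, or because they are close copies of each other. Capitals mark the codon of the conserved cysteine after which the third complementarity-determining region begins. It was located as the last in-frame cysteine codon preceded by a tyrosine and then a tyrosine or phenylalanine codon.
Igkv3-2 (chr6:70699008-70699067, + strand): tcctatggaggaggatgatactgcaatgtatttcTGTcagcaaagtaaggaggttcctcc
Igkv1-110 (chr6:68271208-68271267, + strand): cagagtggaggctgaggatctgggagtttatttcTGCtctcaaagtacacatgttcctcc
Igkv4-74 (chr6:69184826-69184885, - strand): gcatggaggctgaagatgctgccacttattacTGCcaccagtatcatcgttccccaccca
Igkv4-63 (chr6:69377944-69378003, - strand): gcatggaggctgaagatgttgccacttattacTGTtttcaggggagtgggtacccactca
Igkv18-36 (chr6:69992465-69992524, - strand): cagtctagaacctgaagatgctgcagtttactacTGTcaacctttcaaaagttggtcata
Igkv14-126 (chr6:67896583-67896642, + strand): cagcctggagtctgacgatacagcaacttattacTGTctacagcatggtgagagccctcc
Igkv8-28 (chr6:70143593-70143652, - strand): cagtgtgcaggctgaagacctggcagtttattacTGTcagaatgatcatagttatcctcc
Igkv8-19 (chr6:70340876-70340935, - strand): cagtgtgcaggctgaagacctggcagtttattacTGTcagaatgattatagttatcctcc
Igkv17-121 (chr6:68037259-68037318, + strand): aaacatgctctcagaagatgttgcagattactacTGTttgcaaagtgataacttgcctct
Igkv17-127 (chr6:67861600-67861659, + strand): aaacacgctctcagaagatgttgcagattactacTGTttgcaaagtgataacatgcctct
Iglv2 (chr16:19260401-19260460, - strand): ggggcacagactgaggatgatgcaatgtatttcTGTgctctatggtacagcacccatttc

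The pair Igkv5-43 and Igkv5-45 is the closest among the listed segments. Over the whole coding region they were identical at 342 of 347 bases (98.6%), and over the coding part of the V exon at 295 of 298 (99.0%). Capitals mark the 3 bases of that part at which they differ.
Igkv5-43 (chr6:69823355-69823652, - strand): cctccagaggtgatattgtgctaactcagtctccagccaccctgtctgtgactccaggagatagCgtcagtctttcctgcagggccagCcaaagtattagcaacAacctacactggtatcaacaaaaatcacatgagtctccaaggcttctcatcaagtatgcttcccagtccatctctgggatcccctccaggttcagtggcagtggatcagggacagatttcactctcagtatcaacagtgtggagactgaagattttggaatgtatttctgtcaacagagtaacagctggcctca
Igkv5-45 (chr6:69775750-69776047, - strand): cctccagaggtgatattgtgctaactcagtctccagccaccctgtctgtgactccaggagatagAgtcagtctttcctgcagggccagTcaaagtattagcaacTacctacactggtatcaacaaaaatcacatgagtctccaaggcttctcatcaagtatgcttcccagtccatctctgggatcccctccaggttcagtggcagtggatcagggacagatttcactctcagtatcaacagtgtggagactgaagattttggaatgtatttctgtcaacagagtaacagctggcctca
Igkv8-28 and Igkv8-19 differed at 9 of 365 coding bases (97.5% identical) and Igkv17-121 and Igkv17-127 at 9 of 353 (97.5%). Igkv9-120 and Igkv9-124 were 95.2% identical. Iglv2 was 96.9% identical to Iglv1, which was not listed, and Igkv13-84, Igkv10-94, Igkv1-110 and Igkv1-135 each had an unlisted V gene that was at least 96.3% identical. Igkv18-36, at 69.8%, and Igkv16-104, at 74.1%, had no close copy among light chain V genes. The sources used here do not say how reads that fit several segments were assigned, and values of segments with a close copy are therefore uncertain.

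Files differed in length, with a shared list of 912 features in Control and DSS, 95 features in BXD_H and 8 in BXD_L. All 27 segments were in the Control and DSS files, 1 was in the BXD_L files and 4 were in the BXD_H files. Values are FPKM, fragment counts divided by exon length and by the size of the library, which makes levels of segments of similar length comparable. The lists are partial and are a selection whose rule is not known, and every one of the 912 features differed between Control and DSS by at least 1.87-fold in mean. Counts of segments that differ are therefore given beside the same share over all features, and nothing is read from them alone. The description text of Control replicate 3 names the DSS course and that of DSS replicate 3 names the low dose, whereas their titles and treatment labels say Control and DSS. Groups follow the titles, and calls lost or values moved by over 1.5 times without these 2 libraries are given below. The spacing of low values gave totals of 14390000 to 19160000 fragments in the Control and DSS libraries. At those totals 1 FPKM of a segment was worth 4.95 to 7.68 fragments, and all 88 segment values above 0 and under 200 fragments lay within 0.2 of a whole fragment. The segments were among the short genes from which the totals were found, so this is no separate check of the totals. Totals of the decoction libraries were not determined, since their files hold too few short genes.

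In colon of DSS mice the 26 listed kappa V segments were higher as a group and the lambda segment Iglv2 was lower. Every listed feature differed between these groups, so the sum covers segments that may be listed because they changed. Summed over the 26 kappa segments, FPKM was 608, 416 and 363 in Control replicates 1 to 3, the order used throughout, and 4292, 3031 and 2411 in DSS. The groups did not overlap. The means were 462 ± 129 and 3245 ± 958 FPKM (SD over the 3 libraries of a group), a ratio of 7.02. In limma's moderated test on log2(FPKM + 1), 25 of the 26 segments with at least 1 FPKM in 3 libraries were called higher in DSS and 1 lower, at a Benjamini-Hochberg adjusted p under 0.05 over all 576 features tested. Of all features tested, 99.1% were called, 79.2% higher and 20% lower. All DSS libraries lay above all Control libraries for 25 of the 27 segments and below them for 1, beside 77.4% and 17.8% of the 912 features. The median log2 change was 2.68 over the 25 kappa segments tested, with a range of 1.26 to 4.64, and 0.96 over all features. Without the 2 libraries of conflicting description 20 of 25 segments tested were called higher and none lower, beside 85.9% of 476 features called in either direction. Among segments still called, the log2 change moved by over 1.5 times in fold for Igkv3-2 (3.50 to 5.05), Igkv1-135 (2.68 to 1.90), Igkv8-19 (2.25 to 1.49), Igkv9-120 (2.42 to 1.81) and Igkv17-127 (2.23 to 2.83). Centring each library on the median of its listed features, a shift of 0.65 on the log2 scale, left 16 higher and 1 lower of 26 tested, beside 40.2% of 572 features called in either direction.

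The kappa constant gene Igkc itself rose in DSS, and the sum of the listed V segments was higher also relative to it. Igkc stood at 4500, 3772 and 4200 FPKM in Control and at 13008, 10988 and 8729 FPKM in DSS, a ratio of means of 2.62 (log2 change 1.38, SE 0.27, limma adjusted p = 0.00365). The ratio of means was above that of Igkc in 25 of the 26 kappa segments, the exception being Igkv9-124 at 2.53. Their median ratio was 7.84, beside 2.59 over all 912 features. The kappa sum equalled 13.5, 11.0 and 8.64% of the Igkc FPKM in Control libraries and 33.0, 27.6 and 27.6% in DSS libraries. Taken one by one, 10 of the 26 kappa segments had a ratio to Igkc that was higher in every DSS library than in every Control library and 0 had a lower one, against 10.4% (higher) and 20% (lower) of the other 911 features. The listed segments are a part of the kappa repertoire, 26 of 100 annotated kappa V genes, and segments outside the lists are not analysed here. Every listed feature differed between Control and DSS by at least 1.87-fold in mean, so segments that rose less may be missing from the sum. The rise of the sum relative to Igkc may follow from that selection and is not read as a change of the whole kappa repertoire.

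**Figure D1:**
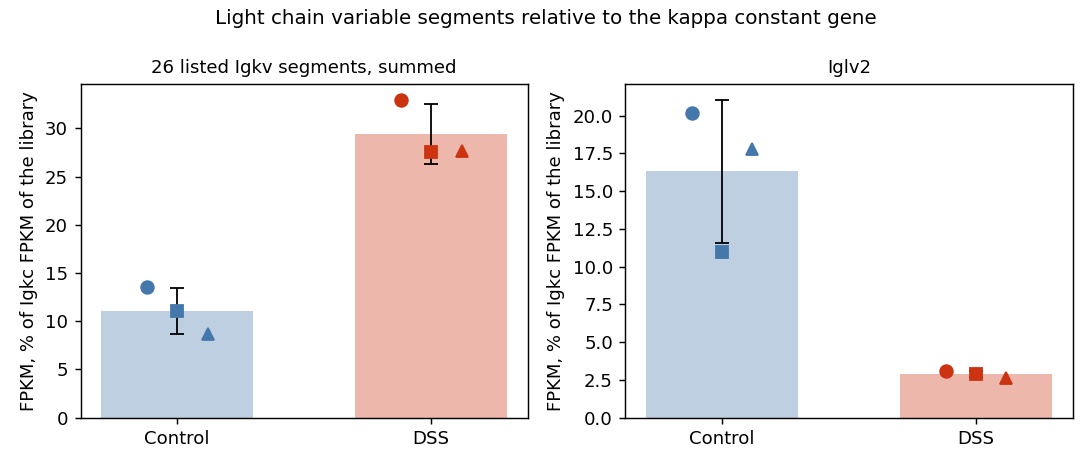
Bars show the mean of 3 libraries and error bars the SD, with 1 marker per library (circle, square and triangle for replicates 1 to 3), of FPKM as a percentage of the Igkc FPKM of the same library. The kappa sum lay at 8.64 to 13.5% in Control and 27.6 to 33.0% in DSS, and Iglv2 at 11.0 to 20.2% in Control and 2.65 to 3.11% in DSS.

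Iglv2, a V segment of the small mouse lambda locus, moved the other way. Its FPKM was 907, 415 and 746 in Control but 404, 321 and 231 in DSS. The lowest Control library thus lay just above the highest DSS library. The means were 690 ± 251 and 319 ± 86.3 FPKM. The log2 change was −1.07 ± 0.41 (SE), with an adjusted p of 0.0283 in limma. The call was lost without Control replicate 1 (adjusted p = 0.103), Control replicate 3 (0.0941), DSS replicate 2 (0.0557) or DSS replicate 3 (0.0694), and also when both libraries whose descriptions conflict were left out (0.184), all in limma, with a log2 change between −1.40 and −0.84 when 1 library was left out. Relative to Igkc its FPKM was 20.2, 11.0 and 17.8% in Control and 3.11, 2.92 and 2.65% in DSS. Iglv2 alone held 49.9 to 67.3% of the summed light chain V FPKM listed for Control libraries and 8.601 to 9.57% of that for DSS libraries. Of the 27 listed segments it had the highest FPKM in every Control library. Both statements depend on the list, which lacks most kappa V genes and holds only kappa segments with a higher mean in DSS. They do not give the share of lambda among all light chains. The segment lies on chromosome 16 from 19260401 to 19260859 (ENSMUSG00000076940), and Iglv1, Iglv3 and the lambda constant genes were not among the listed features.

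**Figure D2:**
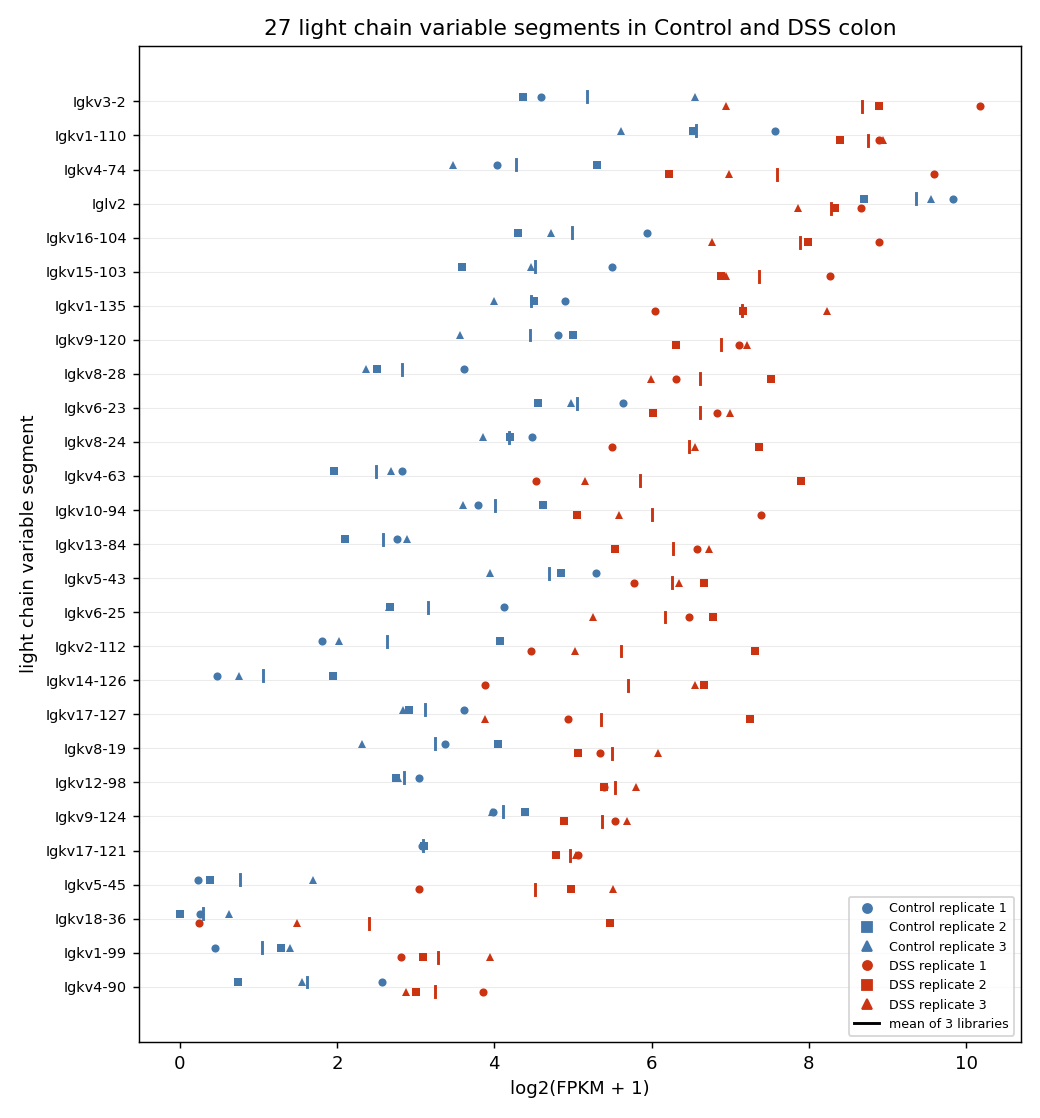
Each row is 1 segment, ordered by its DSS mean, with log2(FPKM + 1) on the horizontal axis, 1 marker per library and a vertical bar at the mean of 3 libraries on that scale. All 26 kappa segments have a higher mean in DSS, Iglv2 a lower one, and the DSS values of Igkv18-36 overlap those of Control.

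Among the abundant kappa segments, Igkv3-2, Igkv1-110 and Igkv4-74 had the highest DSS means. Igkv3-2, the segment closest to the constant gene among those listed, stood at 23.2, 19.7 and 93.1 FPKM in Control and at 1158, 473 and 122 FPKM in DSS. DSS replicate 3 lay only just above Control replicate 3, whereas DSS replicate 1 held the highest value of any kappa segment. The log2 change was 3.50 (SE 0.85, limma adjusted p = 0.00539). It was 2.74 without DSS replicate 1, 4.36 without DSS replicate 3 and 4.19 without Control replicate 3, and the ratio of means fell from 12.9 to 6.56 without DSS replicate 1. Igkv1-110 stood at 189, 91.3 and 47.8 FPKM in Control and at 474, 336 and 492 FPKM in DSS. It was the highest kappa segment of Control replicates 1 and 2 and of DSS replicate 3, and its DSS libraries were more alike than its Control libraries (log2 change 2.17, SE 0.50, limma adjusted p = 0.00499). Igkv4-74 stood at 15.4, 38.7 and 10.2 FPKM in Control and at 766, 73.7 and 126 FPKM in DSS. The high DSS mean of Igkv4-74 came from DSS replicate 1, and without that library the ratio of means fell from 15.0 to 4.66 and the log2 change from 3.32 to 2.33. Without DSS replicate 2 the log2 change was 4.01.

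Igkv16-104 and Igkv15-103, neighbours in the locus and the only listed members of their families, had similar profiles across libraries. Igkv16-104 stood at 60.7, 18.7 and 25.4 FPKM in Control and at 474, 252 and 108 FPKM in DSS (log2 change 2.89, SE 0.61). Igkv15-103 stood at 44.1, 11.1 and 21.2 FPKM in Control and at 307, 117 and 122 FPKM in DSS (2.85, SE 0.56). Both were highest in replicate 1 of each group and lowest in replicate 2 of Control, and neither overlapped between groups. Igkv1-135, the listed segment farthest from the constant gene, stood at 28.9, 21.6 and 15.0 FPKM in Control and at 64.7, 143 and 299 FPKM in DSS. Igkv9-120 stood at 26.97, 31.0 and 10.8 FPKM in Control and at 137, 78.2 and 148 FPKM in DSS. Its close copy Igkv9-124 stood at 14.8, 19.9 and 14.7 FPKM in Control and at 45.4, 28.6 and 50.7 FPKM in DSS. Of these, Igkv1-135 was highest in DSS replicate 3, and the 2 segments of family 9 shared the order of their DSS libraries, with replicate 3 highest and replicate 2 lowest. Igkv9-124 had the smallest kappa change, 1.26 in log2 (SE 0.33, adjusted p = 0.0068 in limma), and it was not called without the 2 libraries of conflicting description (adjusted p = 0.0666 in limma).

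A number of segments were high in a single DSS library. Igkv18-36, the only listed member of its family, is the extreme case, with 0.20, 0 and 0.54 FPKM in Control and 0.19, 43.4 and 1.82 FPKM in DSS. These are 1, 0 and 3 fragments in Control and 1, 248 and 12 fragments in DSS. DSS replicate 1 thus held no more than Control, and the high mean rested on DSS replicate 2, where it was 23.8 times that of the next library. Igkv18-36 had at least 1 FPKM in fewer than 3 libraries and was not tested. With no filter its log2 change of 2.11 (SE 1.15) had an adjusted p = 0.104 in limma, over all 912 features. It was the kappa segment with the largest ratio of means, 61.3, which fell to 4.07 without DSS replicate 2.

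DSS replicate 2 was also far above the other libraries for Igkv4-63, Igkv2-112 and Igkv17-127, which belong to different families. Igkv4-63 stood at 6.12, 2.90 and 5.43 FPKM in Control and at 22.1, 237 and 34.5 FPKM in DSS. Igkv2-112 stood at 2.50, 15.8 and 3.07 FPKM in Control and at 21.2, 159 and 31.7 FPKM in DSS. Igkv17-127 stood at 11.2, 6.52 and 6.18 FPKM in Control and at 29.6, 151 and 13.8 FPKM in DSS. In each the 3 DSS libraries lay above the 3 Control libraries, but DSS replicate 2 was 6.85, 5.01 and 5.08 times the next DSS library. Without it the ratio of means fell from 20.3 to 5.88 for Igkv4-63, from 9.90 to 3.71 for Igkv2-112 and from 8.11 to 2.72 for Igkv17-127. The log2 change of Igkv17-127 was 2.23 (SE 0.74, limma adjusted p = 0.0164) with all libraries, 1.29 without DSS replicate 2 and 2.97 without DSS replicate 3, and it was not called without Control replicate 2 (adjusted p = 0.0524 in limma). Igkv17-121, whose coding sequence differs from that of Igkv17-127 at 9 bases, was even across DSS libraries at 32.5, 26.7 and 31.8 FPKM, against 7.47, 7.61 and 7.64 FPKM in Control. The log2 change of Igkv4-63 was 3.37, against 2.35 without DSS replicate 2 and 4.03 without DSS replicate 1. That of Igkv2-112 was 2.97, against 2.12 without DSS replicate 2 and 3.69 without Control replicate 2. The excess in DSS replicate 2 was thus seen in 1 of the 2 copies of family 17. DSS replicate 1 stood out in the same way for Igkv4-74, described above, and for Igkv10-94. Igkv10-94 stood at 12.8, 23.5 and 11.2 FPKM in Control and at 167, 32.1 and 46.9 FPKM in DSS, with a log2 change of 2.00 that was 1.31 without DSS replicate 1.

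Libraries of a group differed more in kappa V segments than in the median listed feature, and heavy chain V segments were like them. The highest DSS library was at least 5 times the lowest in 9 of 26 kappa segments (34.6%), beside 65 of all 912 features (7.13%). The 26 listed heavy chain V segments gave 9 as well, and the 5 listed heavy chain constant genes 0. The median coefficient of variation between DSS libraries was 59.6% for kappa segments and 29.7% for all features, and between Control libraries 59.2 and 27.6%. Which library was highest also differed. DSS replicate 2 held the highest value in 64.5% of the 456 features called higher in DSS, but for kappa segments the highest library was replicate 1 in 7, replicate 2 in 9 and replicate 3 in 10. Igkc, Igkj3 and Igkj4 were highest in DSS replicate 1, as were the listed heavy chain constant genes except Ighg3, highest in replicate 2. Heavy chain V segments were not counted in this way. Across the 26 kappa segments, log2(FPKM + 1) of 2 libraries of a group correlated with Pearson's r of 0.78 to 0.87 in Control and of 0.53, 0.75 and 0.53 in DSS (replicates 1 and 2, 1 and 3, 2 and 3). Over all 912 features r was 0.94 to 0.98. These correlations are descriptions over segments that share libraries and the range of levels between genes raises them.

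**Figure D3:**
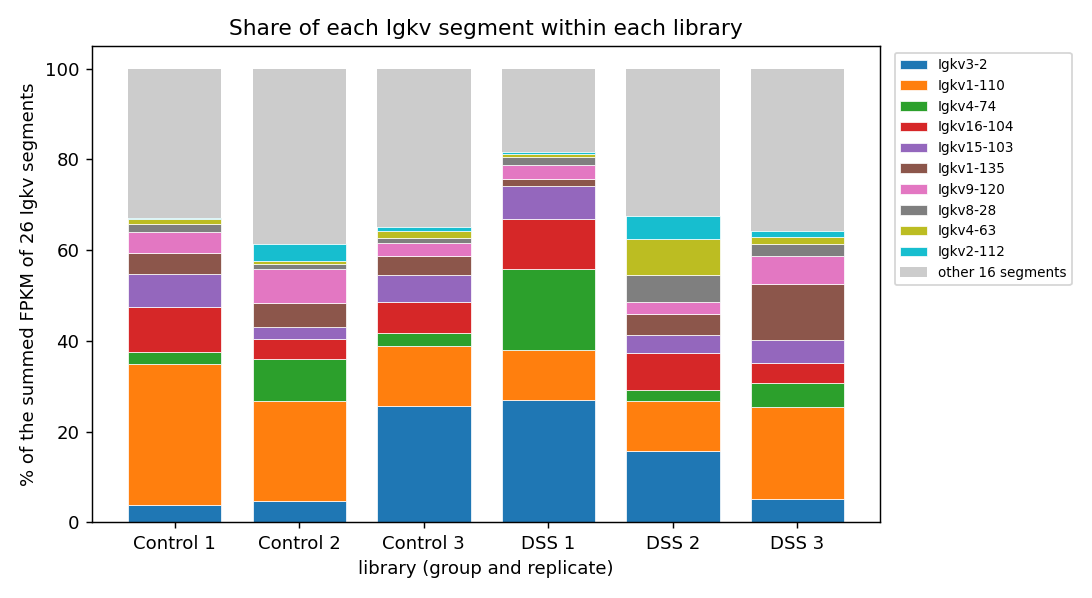
Stacked bars give the share of each segment in the summed FPKM of the 26 kappa segments of a library, for the 8 with the highest DSS means, for Igkv4-63 and Igkv2-112 (added after their values were seen) and for the other 16 together. Igkv1-110 held 31.1% in Control replicate 1 and 11.1% in DSS replicate 1, and Igkv3-2 held 26.98% in DSS replicate 1 but 5.07% in DSS replicate 3.

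The leading segments of a library differed also within groups. Igkv1-110 held 31.1, 21.9 and 13.2% of the kappa sum in the Control libraries and 11.1, 11.1 and 20.4% in the DSS libraries. Igkv3-2 held 3.81, 4.73 and 25.7% in Control and 26.98, 15.6 and 5.07% in DSS. In this segment the share in Control replicate 3, whose description names DSS, was close to that in DSS replicate 1, while its kappa sum was the lowest of the 6 libraries. Igkv4-74 held 17.8% in DSS replicate 1 and 2.43 to 9.30% in the other 5 libraries. The 3 leading segments together held 49.1, 38.7 and 47.2% in Control and 55.9, 34.97 and 38.9% in DSS. The effective number of segments, the inverse of the summed squared shares, was 7.504, 11.3 and 9.12 in Control and 7.16, 14.02 and 12.0 in DSS. The groups overlapped in both measures. The number of kappa segments at 10 FPKM or more did not overlap, at 12 to 15 of 26 in Control and 23 to 24 in DSS. All 26 had a higher mean in DSS, so this count restates their levels and is not read as a broader repertoire. The same count was not made over all features.

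Igkv14-126 and Igkv5-45, both low in Control, had 2 of the 3 largest log2 changes. Igkv14-126 was under 1 FPKM in Control replicates 1 and 3, and Igkv5-45 in Control replicates 1 and 2. They met the filter of 1 FPKM in 3 libraries through groups where they were higher, so their calls are not read as support. Without the 2 libraries of conflicting description Igkv5-45 did not meet the filter and was not tested. Igkv14-126 stood at 0.39, 2.85 and 0.69 FPKM in Control, which is 2, 17 and 4 fragments, and at 13.8, 101 and 92.4 FPKM in DSS (log2 change 4.64, SE 0.73, limma adjusted p = 0.00171). Igkv5-45 stood at 0.18, 0.31 and 2.24 FPKM in Control, or 1, 2 and 14 fragments, and at 7.25, 30.5 and 44.7 FPKM in DSS (3.74, SE 0.63). Both were lowest in DSS replicate 1, the library in which Igkv3-2 and Igkv4-74 were highest. Without that library the log2 change was 5.55 for Igkv14-126 and 4.47 for Igkv5-45. Igkv5-43, nearly identical to Igkv5-45, was at a higher level and changed less, with 38.3, 27.9 and 14.5 FPKM in Control and 53.6, 100 and 80.1 FPKM in DSS (log2 change 1.56, SE 0.49, limma adjusted p = 0.0113). That call was lost without Control replicate 3 (adjusted p = 0.0554) and when DSS replicate 3 was left out as well (0.101), both in limma. Igkv1-99 stood at 0.37, 1.44 and 1.64 FPKM in Control and at 6.04, 7.52 and 14.4 FPKM in DSS. Igkv4-90 stood at 4.94, 0.68 and 1.93 FPKM in Control and at 13.5, 7.00 and 6.37 FPKM in DSS. These 2 were the only kappa segments with a DSS mean under 10 FPKM, and in both the lowest DSS library lay above the highest Control library.

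Family 8 was represented by 3 segments that all rose. Igkv8-28 stood at 11.3, 4.70 and 4.16 FPKM in Control and at 78.6, 182 and 62.9 FPKM in DSS (log2 change 3.78, SE 0.47, limma adjusted p = 0.000729). Igkv8-24 stood at 21.3, 17.4 and 13.5 FPKM in Control and at 44.1, 163 and 92.9 FPKM in DSS. Igkv8-19 stood at 9.39, 15.6 and 4.00 FPKM in Control and at 39.6, 32.3 and 67.0 FPKM in DSS. Igkv8-28 and Igkv8-24 were highest in DSS replicate 2 and Igkv8-19, the close copy of Igkv8-28, in DSS replicate 3. In family 6, Igkv6-25 stood at 16.5, 5.37 and 5.35 FPKM in Control and at 87.9, 109 and 37.1 FPKM in DSS. Igkv6-23 stood at 48.6, 22.5 and 30.4 FPKM in Control and at 113, 63.7 and 126 FPKM in DSS. The order of the DSS libraries was thus not shared within family 6 either, with Igkv6-25 highest in replicate 2 and Igkv6-23 in replicate 3. Without the 2 libraries of conflicting description Igkv6-23 (adjusted p = 0.0629) and Igkv10-94 (0.0511) were not called in limma.

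Igkv12-98 and Igkv13-84 had the smallest SE relative to their change among kappa segments. Igkv12-98 stood at 7.21, 5.71 and 5.86 FPKM in Control and at 41.1, 41.2 and 54.6 FPKM in DSS (log2 change 2.68, SE 0.28). Igkv13-84 stood at 5.81, 3.29 and 6.39 FPKM in Control and at 94.4, 45.2 and 105 FPKM in DSS (3.69, SE 0.40). With Igkv8-28 they had the smallest adjusted p among light chain segments (0.000729 in limma for each). All 3 were called when any 1 library was left out. Each of those fits called 24 to 25 of the 26 segments tested higher, and 91.1 to 97% of all features. Keeping the call thus does not set these 3 segments apart. Their ratio to Igkc was also higher in every DSS library than in every Control library, as were those of Igkv17-121, Igkv15-103, Igkv1-99, Igkv4-63, Igkv5-45, Igkv14-126 and Igkv6-25.

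Position in the kappa locus gave no clear order to the changes. The 26 segments lie on chromosome 6 between 67609713 and 70699067 (GRCm38), 27.4 to 3116 kb upstream of Igkc. The kappa locus holds V segments in both orientations, which join by deletion or by inversion of the DNA between them and the J segment. The ratio of DSS to Control means had a median of 8.03 (range 3.97 to 52.7) in the 14 segments oriented as Igkc and of 5.45 (2.53 to 61.3) in the 12 oriented against it. Its Spearman correlation with the distance to Igkc was −0.12 over the 26 segments, which share libraries and in part reads.

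Other genes of light chains and of B lineage cells were sparsely listed. Of 15 light chain constant and joining genes 3 were listed and tested, and all 3 were called higher in DSS. These were Igkc, Igkj3 (74.99, 79.0 and 32.4 FPKM in Control and 249, 169 and 124 FPKM in DSS) and Igkj4 (73.2, 79.0 and 68.1 FPKM in Control and 232, 187 and 139 FPKM in DSS). Joining segments are far shorter than V segments, and their FPKM is not compared in level with that of V segments. All 5 listed heavy chain constant genes of 9 were called higher, among them Igha, the constant gene of IgA, at 1537, 1041 and 1140 FPKM in Control and 3613, 2776 and 2445 FPKM in DSS (log2 change 1.25, SE 0.31). Of 12 plasma cell genes only Prdm1, the gene of a transcription factor of plasma cells and some T cells, was listed, and it was called higher (1.23, SE 0.23). None of 10 B cell genes, 6 germinal centre genes, 4 surrogate light chain genes or 11 genes of B cell survival, homing and IgA transport was listed. Listed markers of other cells were called too. Higher calls were made for 4 of 4 listed T cell, 1 of 1 macrophage and 2 of 2 fibroblast genes and lower calls for 2 of 2 colon epithelium genes (Car4 and Slc26a3), with 8, 5, 4 and 8 genes on those lists. Of all 576 features tested, 99.1% were called, 79.2% higher and 20% lower, so nothing is read from the counts of this paragraph. The part of a changed cell makeup in the light chain values was not tested.

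In mice given DSS with the high dose of the decoction, 2 of the 4 listed kappa segments were higher than in DSS alone and 2 were lower. The file of this group was again a selection: of 17 features shared with DSS and tested, 94.1% were called, 70.6% higher and 23.5% lower, so nothing is read from the count. The DSS libraries serve in both comparisons, which are therefore not independent. Igkv5-43 stood at 346, 222 and 705 FPKM in BXD_H, against 53.6, 100 and 80.1 FPKM in DSS and 14.5 to 38.3 FPKM in Control. All 3 BXD_H libraries thus lay above all libraries of both other groups, and its mean of 424 ± 251 FPKM was the highest of the 95 features listed for BXD_H. By library it ranked 2, 6 and 1, and without BXD_H replicate 3 its mean of 284 FPKM ranked 4. The log2 change from DSS was 2.31 (SE 0.49, limma adjusted p = 0.00291). Igkv17-121 stood at 76.8, 72.8 and 38.8 FPKM in BXD_H, again above the DSS libraries (26.7 to 32.5 FPKM), a difference of 0.97 in log2 (SE 0.31, adjusted p = 0.0115 in limma). That call rested on the estimate of spread shared over all groups, since in a fit of BXD_H and DSS alone its adjusted p was 0.127 in limma.

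Igkv14-126 and Igkv8-28 were lower in BXD_H than in DSS. Igkv14-126 stood at 9.73, 2.15 and 7.65 FPKM in BXD_H against 13.8, 101 and 92.4 FPKM in DSS, which is −2.97 on the log2 scale (SE 0.73, adjusted p = 0.00484 in limma) and −3.88 without DSS replicate 1. Igkv8-28 stood at 23.2, 12.2 and 20.0 FPKM in BXD_H against 78.6, 182 and 62.9 FPKM in DSS, or −2.37 on that scale (SE 0.47, adjusted p = 0.00233 in limma). For both, every BXD_H library lay below every DSS library, as in 21.1% of the 19 features shared by these files. For the higher pair every BXD_H library lay above, as in 73.7%. The Control values of Igkv8-28, at 11.3, 4.70 and 4.16 FPKM, lay below its BXD_H values, and its BXD_H mean was 2.75 times that of Control. Those of Igkv14-126, 0.39 to 2.85 FPKM, overlapped its BXD_H values only in BXD_H replicate 2. Its BXD_H mean was 4.97 times that of Control. Their coding sequences were 69.8% identical to each other, while Igkv8-19, the close copy of Igkv8-28, and Igkv5-45, that of Igkv5-43, were not listed for BXD_H. Centring on the 19 shared features, a shift of 1.02 on the log2 scale, kept the calls of the 2 lower segments and left neither higher one called (log2 change 1.29 for Igkv5-43 and −0.055 for Igkv17-121). That shift moves all features of the list alike and is close to the change of Igkv17-121, and 25% of 16 features were then called. Of the immunoglobulin constant genes, Ighg1 was listed for BXD_H and was called higher than in DSS (2.28 in log2, SE 0.43, adjusted p = 0.00233 in limma). Igkc was not listed for BXD_H, and a ratio to it was not computed.

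The low dose files held 1 light chain segment, Igkv1-99. It stood at 1.65, 0.48 and 0 FPKM in BXD_L against 6.04, 7.52 and 14.4 FPKM in DSS and 0.37 to 1.64 FPKM in Control. The BXD_L libraries lay below those of DSS and overlapped those of Control. The log2 change from DSS was −2.63 (SE 0.40, limma adjusted p = 0.000139), in a list where all 3 features shared with DSS were called lower (100% of those tested). No light chain segment was listed for both doses, so the doses were not compared. Centring rests on only 3 features here, all of which fell, and its shift of −3.63 on the log2 scale gave Igkv1-99 a value of 1.00. In Control its values rested on 2 to 10 fragments per library, and the depth behind the BXD_L values is unknown.

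**Figure D4:**
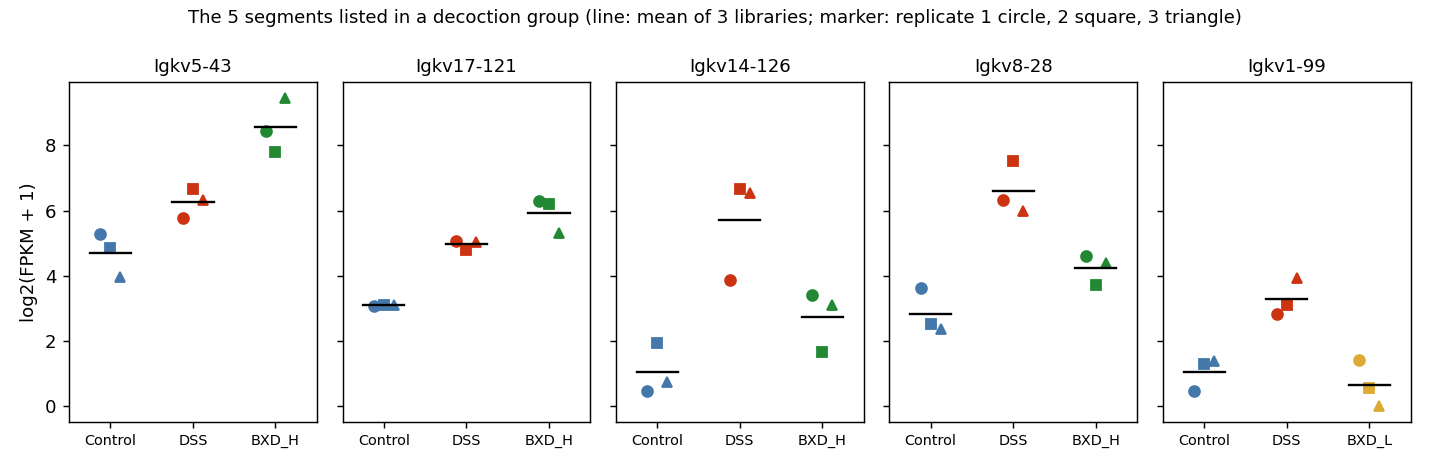
Each panel is 1 of the 5 segments listed for a decoction group, with log2(FPKM + 1) on the vertical axis, 1 marker per library and a line at the mean of 3 libraries on that scale. Igkv5-43 and Igkv17-121 are highest in BXD_H, Igkv14-126 and Igkv8-28 are highest in DSS, and Igkv1-99 in BXD_L overlaps Control.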

How the data were processed

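Colon RNA of 12 libraries, 3 per group, was measured by RNA sequencing (per the labels' protocols, TRIzol extraction and libraries from the NEBNext Ultra RNA kit). The deposited values are FPKM, 1 column per library per the file headers. The submitters' processing notes name bcl2fastq, FastQC, fastp and the build mm10. The sources used here name no aligner, counter, strand setting, annotation release or rule for selecting features. Features were matched by Ensembl identifier to GENCODE M21 (981 of 991; the other 10 kept their identifiers and could not be checked by symbol), which gave symbols, coordinates, exon lengths and sequences.

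Differences were tested in limma 3.58.1 (R 4.3.3) on log2(FPKM + 1). The model had 4 group means and used, for every feature of at least 1 FPKM in 3 libraries, whichever of the 12 libraries list it, with a spread estimate moderated along a trend in level. P-values are two-sided, Benjamini-Hochberg adjusted over all features tested, with a threshold of 0.05. The 1 FPKM added before the log understates changes of low segments. With 0.1 FPKM added, the log2 change from Control to DSS went from 3.74 to 5.06 for Igkv5-45. It went from 4.64 to 5.60 for Igkv14-126 and from 2.24 to 3.03 for Igkv1-99. The fit code was also run on simulated data in which most features did not change. Every feature of the real list differs between Control and DSS, so that run is no check of the calls made here. Library totals were found by scanning for the total at which FPKM times exon length of genes under 1200 bases came out whole. The tolerance was what 2-decimal rounding is worth plus 0.02, and never over 0.2 fragments. It was so for 91.7 to 95.1% of 69 to 103 genes per Control or DSS library, against 41.4 to 52.4% at the best smaller total. The smallest total with a share near the best was taken, so a lower share at smaller totals is in part fixed by that rule. No 2 libraries of a group shared more than 25 equal values of 912.

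Segments, gene lists and tests were chosen with earlier results of these data known. The naming rule was to give library values for up to 25 segments with a group mean of at least 10 FPKM, for the 6 largest changes and for every segment that fell or is listed for a decoction group. Igkv4-90 completes the set. The comparison of BXD_L with DSS was added after the files were seen. Alternatives were other pseudocounts and filters, 2-group fits, a replicate block, centring, other groupings and leaving out libraries. Promoters and protein sequences of these segments were not used here.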

Additional observations from a re-analysis of the deposited data

How the results depend on the processing

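Other pseudocounts (0.1 or 0.5) and filters (none, or 5 FPKM in 3 libraries) kept 25 segments higher and 1 lower in DSS. So did a fit of only the 2 groups compared and the replicate block. Under these settings 96.2 to 99.7% of all features were called. Leaving out 1 library gave 24 to 25 higher and 0 to 1 lower, beside 91.1 to 97% of features called. The steady counts are thus shared with the whole list. Centring left 16 higher (40.2% of features called). Without the 2 libraries of conflicting description 0 were lower (85.9%). With groups by description, 2 segments (Igkv5-45 and Igkv3-2) were higher and 0 lower, of 8 features called in all; the list follows the titles, so this does not tell which text is right. For BXD_H against DSS, 1 segment was higher with only the 2 groups compared (87.5% of features called) and 1 with the replicate block (62.5%). Both settings lost Igkv17-121. With centring 0 were higher (25%), with Igkv17-121 at −0.055. By description 1 was higher and 0 lower (35.3%). Leaving out 1 library kept 2 higher and 2 lower, beside 87.5 to 100% of features called. For BXD_L against DSS, 0 were lower with centring (Igkv1-99 at 1.00), beside 0 of 3 features called. By description 0 were lower, beside 0 of 576 features called. That grouping places DSS replicate 3, with its longer list, in BXD_L, so 26 segments were tested in place of Igkv1-99 alone. The replicate numbers are not shown to pair libraries: deviations of same-numbered Control and DSS libraries correlated at −0.0531, −0.00259 and 0.0661 over 912 features. The ratio of kappa sums was 5.89 to 8.33 with 1 library left out, and the median coefficient of variation in DSS 44.0 to 51.5%. No segment was listed for both doses, so their comparison has no value under any alternative. Of 162 Control and DSS values of segments, 11 rest on fewer than 10 fragments.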
